A study of Mus musculus with 12 samples.

Results

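The 37 genes described here encode enzymes and carriers that oxidise fatty acids in mitochondria and peroxisomes, with the peroxisome division factor Pex11a, the transcription factor Ppara and its coactivator Ppargc1a. They were taken as a named list of pathway genes and followed, through every probe set that names 1 gene symbol, on 12 Affymetrix mouse expression arrays. Of the 37, 36 had such a probe set, out of 18193 genes with one on the array, and Acsl1 was not analysed here. The 36 genes had 71 probe sets, and all 36 passed the brightness filter that left 13037 genes for testing, 3 of them (Cd36, Acot12 and Ppara) only through the tissue arrays.

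The arrays held 6 groups of 2, described in the order organoid, progenitor, tissue. Organoids derived from medulla and from cortex had been differentiated in 3D Matrigel, progenitor cells derived from medulla and from cortex had been cultured on a layer of fibroblast feeder cells, and the tissue samples were medulla and cortex of mouse kidney. Medulla is the inner and cortex the outer part of the kidney. The labels give no strain, age, sex or treatment for any group and do not say whether replicates came from different animals, whether a culture started from 1 clone, or whether feeder cells were removed, so p-values measure only the spread between these samples. The study compared expression across tissue, progenitors and organoids of both regions. All are bulk RNA samples, in which fewer cells of a type and less RNA per cell cannot be told apart.

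Mitochondria shorten fatty acids in a repeated cycle of dehydrogenation, hydration, a second oxidation and thiolysis, called beta-oxidation. Long chains reach the cycle as carnitine esters, and the electrons of its first step pass through the electron transfer flavoprotein to the respiratory chain. Peroxisomes shorten very long and branched chains with their own enzymes and break down the hydrogen peroxide formed. The proximal tubule of the kidney is rich in both organelles and draws most of its energy from fatty acids, and PPAR alpha, the product of Ppara, activates many of these genes together with PGC-1 alpha, the product of Ppargc1a.

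Promoter windows of 300 bases, 250 before and 50 after an annotated start, were available in RefSeq (build GRCm38.p6) for 32 of the 37 genes, with 34 windows in all. Hsd17b4, Crat, Amacr, Acaa2 and Decr1 had none. 6 letter patterns were searched on both strands. The nuclear receptor half-site AGGTCA was found in 8 of the 34 windows, 23.5%, and in 16.3% of all 32851 windows of the table. AAGGTCA, which contains AGGTCA, was found in 1 member window and in 4.72% of all windows. AGGNCANAGGNCA, a pair of such half-sites 1 base apart and the form that PPAR alpha binds, was found in 0 member windows and in 0.381% of all windows. The GC box GGGCGG was found in 25 member windows, 73.5%, in 35.7% of all windows and in 46.2% of the windows of protein-coding genes. CCAAT was found in 15 member windows, 44.1%, and in 37.4% of all windows, and TATAAA in 0 member windows and in 13.6% of all windows. The median GC content was 58.3% in member windows, 52.7% in all windows and 56.3% in those of coding genes. The windows of Hadha and Hadhb, the 2 subunits of the mitochondrial trifunctional protein, lie on opposite strands and share 228 bases.

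Windows are shown for genes on which the results below turn: Ehhadh, which stood furthest below tissue in organoids, Acadm, which holds the half-site and fell in both cultures, and Ppargc1a, which rose most in organoids on the scale used for tests. Capitals mark the matches on either strand. The Ehhadh window (chr16:21787785-21788084, minus strand) holds 2 GC boxes and 1 CCAAT box, the Acadm window (chr3:153944594-153944893, minus strand) holds AAGGTCA on its reverse strand, and the Ppargc1a window (chr5:51567676-51567975, minus strand) holds none of the 6 patterns. These are matches of letters and not measured binding sites.
Ehhadh: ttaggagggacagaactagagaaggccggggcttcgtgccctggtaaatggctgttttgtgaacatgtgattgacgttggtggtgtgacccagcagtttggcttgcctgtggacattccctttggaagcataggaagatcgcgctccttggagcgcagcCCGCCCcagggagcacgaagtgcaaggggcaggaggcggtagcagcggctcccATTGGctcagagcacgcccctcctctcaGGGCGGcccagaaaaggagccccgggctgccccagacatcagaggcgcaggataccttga
Acadm: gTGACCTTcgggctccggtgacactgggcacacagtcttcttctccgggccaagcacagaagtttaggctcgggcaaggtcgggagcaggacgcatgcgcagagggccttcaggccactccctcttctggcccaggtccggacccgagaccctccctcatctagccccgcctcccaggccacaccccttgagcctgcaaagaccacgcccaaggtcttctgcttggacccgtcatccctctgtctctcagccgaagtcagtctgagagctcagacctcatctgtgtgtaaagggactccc
Ppargc1a: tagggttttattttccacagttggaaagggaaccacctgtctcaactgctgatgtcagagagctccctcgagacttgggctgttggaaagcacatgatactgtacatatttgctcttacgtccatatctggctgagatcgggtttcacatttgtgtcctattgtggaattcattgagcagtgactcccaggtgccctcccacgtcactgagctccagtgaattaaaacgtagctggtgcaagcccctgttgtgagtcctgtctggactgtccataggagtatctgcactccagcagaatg

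The values are log2 MAS5 signals as deposited, 1 per probe set and array. For tests the signals were unlogged, 15.1 signal units were added and log2 was taken again, so that a log2 difference understates the change of a dim gene. Each gene is represented by its probe set with the highest mean. Differences carry standard errors (SE) from limma, with p-values adjusted by Benjamini-Hochberg over all 13037 genes and called at 0.05. Stage differences average both regions, with 4 arrays on each side. Organoid arrays stood apart in their added controls: poly-A control probe sets had a median log2 signal between 1.15 and 2.30 on organoid arrays, 7.01 and 7.16 on progenitor arrays and 7.69 and 8.23 on tissue arrays. The 3' minus 5' log2 difference of Gapdh was 0.867 to 1.67 on organoid arrays, -0.405 to -0.298 on progenitor arrays and -0.233 to 0.183 on tissue arrays. Being organoid RNA and having these control values cannot be told apart. The same difference for beta-actin, -0.00155 to 0.149 on organoid arrays and 0.163 to 0.187 on progenitor arrays, was 0.938 to 1.63 on tissue arrays, and its part in the results was not tested. Markers matched the labels in part: mean log2 signals of 19 proximal tubule markers were 5.42 to 6.18 on organoid arrays, 4.23 to 4.94 on progenitor arrays and 12.60 to 13.36 on tissue arrays, and 11 and 14 of the 19 did not exceed the array median on any organoid and any progenitor array.

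**Figure D1:**
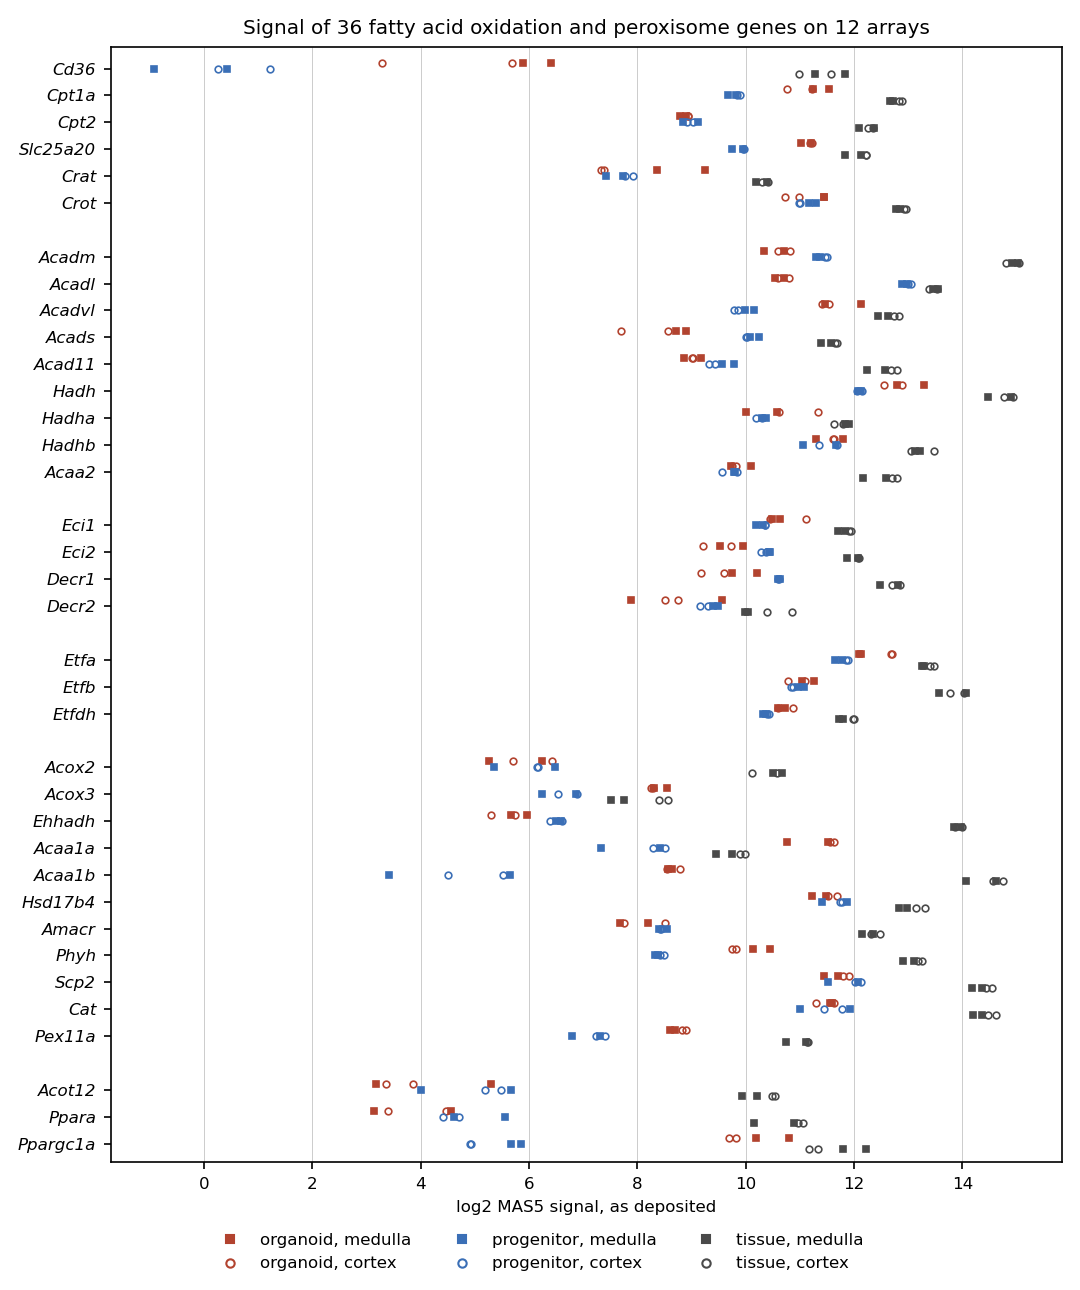
Log2 MAS5 signal as deposited (horizontal axis) of the 36 genes on each of the 12 arrays, grouped from top to bottom by uptake and carnitine shuttle, mitochondrial cycle, unsaturated chains, electron transfer, peroxisome, and thioesterase with regulators. Red points are organoids, blue points progenitors and dark points tissue, filled for medulla and open for cortex; every gene's 4 progenitor arrays lie left of its 4 tissue arrays.

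In progenitor cells all 36 tested members of the list were lower than in kidney tissue. Of the 36, 33 had passed the brightness filter through organoid or progenitor arrays, and all 33 fell by limma, against 30.1% of the 11815 genes that passed in the same way, with a median log2 difference of -2.53 against 0.17. Cd36, Acot12 and Ppara passed only because they were bright in tissue, so their position below tissue follows from the filter in part and is given as a description. With them all 36 were called lower, against 35.9% of all 13037 genes tested, and 0 higher, against 36.8%, and the median was -2.68, against 0.03 over all genes. In all 36 the 4 progenitor arrays lay below the 4 tissue arrays, which held for 35.8% of all genes, and 34 fell at least 2-fold and 23 at least 4-fold. The falls ranged from -9.03 for the peroxisomal thiolase Acaa1b to -0.50 for the long-chain acyl-CoA dehydrogenase Acadl. All 66 member probe sets that passed the filter, 10 of them only through tissue, were lower when tested on their own, against 30.2% of 24203 probe sets. Of the other 56 all fell, against 24.9% of the 22246 probe sets that passed in the same way. Fibroblast and feeder markers moved with this comparison: 5 of 9 were higher in progenitors, with Col1a1 (3.28) furthest, and 3 were lower. Their summed log2 signal was 13.25 to 13.77 on progenitor arrays and 11.90 to 13.01 on tissue arrays, and their part in the members' falls was not tested.

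The uptake and carnitine genes were all lower, 6 of 6, with a median difference of -2.74. Cd36 among them had passed the filter only through tissue. Cd36, a fatty acid transporter of the cell membrane, had log2 signals of -0.93 and 0.41 in medulla progenitors and 0.25 and 1.21 in cortex progenitors, against 11.83 and 11.27 in medulla tissue and 10.98 and 11.56 in cortex tissue. The groups did not overlap, and the difference on the offset scale was -7.38 ± 0.30, its size set by the offset at these dim progenitor signals. Cd36 is also made by endothelium, whose 8 markers all fell in progenitors, with a summed log2 signal of 8.87 to 9.28 on progenitor arrays and 12.76 to 13.57 on tissue arrays. Their part in the Cd36 difference was not tested. Cpt1a, which makes the carnitine esters at the outer membrane and sets the rate of entry, averaged 9.80 ± 0.0956 in progenitors and 12.77 ± 0.102 in tissue (SD, n = 4 each) and fell by 2.95 ± 0.11. Its partner at the inner membrane, Cpt2, fell by 3.25 ± 0.11, and the carrier between the membranes, Slc25a20, by 2.18 ± 0.10. The acetyl and octanoyl transferases Crat and Crot fell by 2.53 ± 0.19 and 1.76 ± 0.08.

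The 9 genes grouped under the mitochondrial cycle, Acad11 among them, fell with a median of -2.67. Where their products lie in the cell was not measured. The falls were unequal along the chain-length series of acyl-CoA dehydrogenases. Acadm, the medium-chain enzyme, had 11.29, 11.38, 11.49 and 11.46 on the progenitor arrays, against 14.92, 15.02, 14.80 and 15.04 on the tissue arrays, and fell by 3.53 ± 0.10 (adjusted p = 3.18e-11). Acadl, the long-chain enzyme, had 12.97, 12.88, 13.00 and 13.06 on the progenitor arrays, against 13.55, 13.45, 13.38 and 13.53 on the tissue arrays, and fell by 0.50 ± 0.09 (adjusted p = 0.000199). The arrays of both genes stayed apart, closely for Acadl. The very-long-chain enzyme Acadvl fell by 2.70 ± 0.13, the short-chain enzyme Acads by 1.47 ± 0.16 and Acad11, a further member of the family, by 3.02 ± 0.11. For the trifunctional protein the differences were -1.49 ± 0.16 for the alpha subunit Hadha and -1.78 ± 0.16 for the beta subunit Hadhb. The hydroxyacyl-CoA dehydrogenase Hadh fell by 2.67 ± 0.13 and the thiolase Acaa2 by 2.79 ± 0.12.

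Genes that prepare unsaturated chains and those that carry electrons fell with medians of -1.58 (4 genes) and -1.56 (3 genes). The enoyl-CoA isomerases Eci1 and Eci2 fell by 1.53 ± 0.13 and 1.63 ± 0.13. The dienoyl-CoA reductases fell by 2.09 ± 0.13 for the mitochondrial Decr1 and by 0.97 ± 0.27 for the peroxisomal Decr2 (adjusted p = 0.00639). The medulla arrays alone gave -0.57 ± 0.38 for Decr2, which was not called (adjusted p = 0.212 by limma), while all 36 genes were called lower in cortex alone and the other 35 in medulla alone, against 30.6% and 31.1% of all genes. In the electron transfer flavoprotein, the beta subunit Etfb fell by 2.91 ± 0.12, the alpha subunit Etfa by 1.56 ± 0.07 and the dehydrogenase Etfdh by 1.49 ± 0.09.

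Among the 11 peroxisome genes the range was widest, with a median of -3.71. Acaa1b had 3.41 and 5.65 in medulla progenitors and 5.52 and 4.50 in cortex progenitors, against 14.07 and 14.62 in medulla tissue and 14.56 and 14.75 in cortex tissue. The progenitor arrays spread over more than 2 log2 units and lay far below the tissue arrays (-9.03 ± 0.26, adjusted p = 3.18e-11). Ehhadh, the bifunctional enzyme of straight-chain peroxisomal oxidation, had 6.58, 6.50, 6.60 and 6.39 on the progenitor arrays, against 13.85, 13.98, 13.85 and 13.99 on the tissue arrays. These were among the tightest groups of the list, and the difference was -7.18 ± 0.14 (adjusted p = 2.54e-12). Hsd17b4, the bifunctional enzyme of branched-chain and bile acid oxidation, fell by 1.36 ± 0.11.

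Enzymes of branched-chain breakdown fell too. Phyh, which hydroxylates phytanoyl-CoA in alpha-oxidation, fell by 4.65 ± 0.10, the racemase Amacr by 3.82 ± 0.17 and the branched-chain oxidase Acox2 by 4.14 ± 0.26. The oxidase Acox3 fell by 1.31 ± 0.19 and the thiolase Acaa1a by 1.58 ± 0.21. Acaa1a and Acaa1b are close copies, the Acaa1a probe sets carry the mark for cross-hybridisation, and 2 further probe sets name both genes. Those 2 had progenitor signals of 10.07 to 10.20 and 11.14 to 11.35, against tissue signals of 13.03 to 13.77 and 13.56 to 14.21, and the 2 copies cannot be told apart there. The lipid carrier Scp2 fell by 2.44 ± 0.12, catalase (Cat) by 2.87 ± 0.17 and Pex11a by 3.71 ± 0.14.

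Of the regulators, Ppargc1a had 5.85 and 5.66 in medulla progenitors and 4.93 and 4.90 in cortex progenitors, against 12.21 and 11.80 in medulla tissue and 11.16 and 11.33 in cortex tissue. The groups were apart and the difference was -5.83 ± 0.16 (adjusted p = 2.06e-11). Ppara differed by -5.32 ± 0.26 and Acot12, a thioesterase of acetyl-CoA, by -4.66 ± 0.30, both genes that passed the filter only through tissue. Proximal tubule markers outside fatty acid metabolism moved in the same direction, 19 of 19 lower with a median of -7.28, and the part of tubule cell content in the members' falls was not tested. Of these 19 markers, 14 did not exceed the array median on any progenitor array, so their falls can follow from the filter in part.

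**Figure D2:**
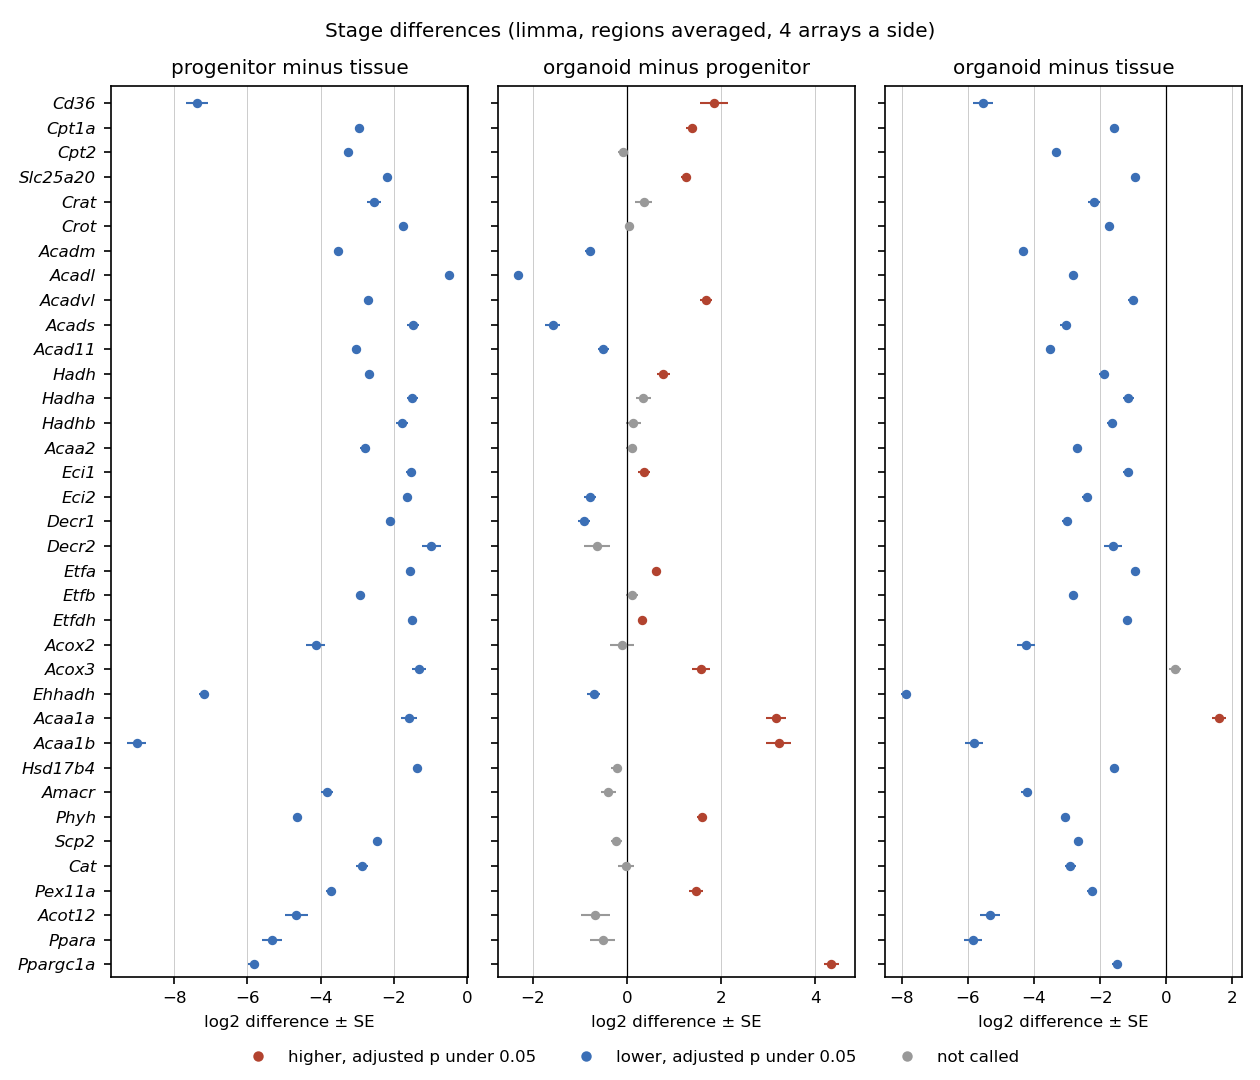
Log2 difference with its SE (horizontal axes) of each of the 36 genes in the 3 stage comparisons, in the same order as in the plot of signals, red where higher, blue where lower and grey where not called by limma. All 36 points lie left of 0 for progenitor minus tissue, 14 lie right of 0 in red for organoid minus progenitor, and Acaa1a alone is red for organoid minus tissue.

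In organoids the list divided when set against progenitor cells. Ppargc1a rose by 4.34 and the peroxisomal thiolase Acaa1b by 3.22 on the log2 offset scale, and Cd36, Cpt1a, Slc25a20 and Acadvl rose as well. Acadl, Acads, Acadm and Decr1 fell further. The progenitor groups of Ppargc1a, Acaa1b and Cd36 were not above the array median, and those of Cd36 in organoids were not either. The sizes for these 3 genes therefore depend on the offset: the deposited means differed by 4.79, 3.87 and 5.08, and over the alternatives the values ran from 3.42 to 4.75, 2.22 to 3.81 and 0.73 to 4.20. By limma 14 of 36 rose, against 28.1% of all genes, 7 fell, against 44.3%, and 15 were not called. Each gene counts by its representing probe set. The 14 include Acaa1a, whose probe sets disagree, and Hadh, whose rise was called only by probe sets with the cross-hybridisation mark. The members' median was 0.10 and that of all genes -0.29. Of the 4676 genes lower in progenitors than in tissue, 37.5% were higher in organoids than in progenitors, and the 14 of 36 members lie near that share. The count of falls was 12 with every array scaled to its 75th percentile and 11 without the second medulla organoid array.

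Ppargc1a had 10.19 and 10.79 in medulla organoids and 9.82 and 9.69 in cortex organoids, against 5.85, 5.66, 4.93 and 4.90 on the progenitor arrays. Every organoid array lay far above every progenitor array, with a difference of 4.34 ± 0.16 (adjusted p = 8.63e-10). All 5 of its probe sets rose, by 2.31 to 4.42. For Ppara the probe sets disagreed. Its representing probe set had 3.13, 4.56, 4.47 and 3.40 in organoids, against 5.55, 4.62, 4.41 and 4.70 in progenitors. These overlap, and the difference of -0.51 ± 0.26 was not called (adjusted p = 0.099). Its other 2 probe sets gave 0.90 ± 0.29 and 1.06 ± 0.34, both called higher (adjusted p = 0.0139 and 0.0134 by limma over all probe sets), so no direction can be given for Ppara between these stages. Acot12 had -0.67 ± 0.30 and was not called (adjusted p = 0.0636).

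Of the uptake and carnitine genes 3 of 6 rose and 0 fell, against 28.1% and 44.3% of all genes. Cd36 had 5.90 and 6.41 in medulla organoids and 3.29 and 5.68 in cortex organoids, against -0.93, 0.41, 0.25 and 1.21 on the progenitor arrays. The organoid arrays spread over 3 log2 units but did not overlap with the progenitor arrays (1.85 ± 0.30 on the offset scale, adjusted p = 0.000156). All of them lay below the organoid array medians of 6.21 to 6.53 or their own array's median, so this rise is between dim signals. Its other 2 probe sets gave 0.68 ± 0.25, called higher, and 0.52 ± 0.30, not called. Fabp4, the only adipocyte marker that was tested of 4 with a probe set, rose by 5.06 in the same comparison. The summed log2 signal of those 4 was 10.25 to 10.84 on organoid arrays and 5.25 to 6.27 on progenitor arrays. On organoid arrays the sum was that of Fabp4, which averaged 10.41, since the other 3 did not exceed the array median on any of them. Of 8 endothelial markers 0 rose and 3 fell, and the part of other cell types in the Cd36 value was not tested. Cpt1a averaged 11.19 ± 0.32 in organoids and 9.80 ± 0.0956 in progenitors (SD, n = 4 each), a rise of 1.37 ± 0.11, and its other 2 probe sets rose by 1.22 and 2.82. Slc25a20 rose by 1.25 ± 0.10. Cpt2 (-0.08 ± 0.11), Crat (0.36 ± 0.19) and Crot (0.04 ± 0.08) were not called, but 1 of the 2 other Crat probe sets was called lower (-1.15 ± 0.22).

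The acyl-CoA dehydrogenases moved both ways. Acadvl averaged 11.63 ± 0.328 in organoids and 9.94 ± 0.157 in progenitors (SD, n = 4 each) and rose by 1.68 ± 0.13. Acadl had 10.53, 10.71, 10.59 and 10.80 in organoids, against 12.97, 12.88, 13.00 and 13.06 in progenitors, and fell by 2.31 ± 0.09 (adjusted p = 9.94e-10). Acads had 8.72 and 8.90 in medulla organoids and 8.57 and 7.70 in cortex organoids, against 10.08 and 10.25 in medulla progenitors and a mean of 10.01 over both cortex progenitor arrays. No organoid array of these 2 genes reached the progenitor range, and Acads fell by 1.57 ± 0.16 (adjusted p = 2.24e-06). Acadm had 10.34, 10.71, 10.59 and 10.81 in organoids, against 11.29, 11.38, 11.49 and 11.46 in progenitors, a fall of 0.79 ± 0.10 (adjusted p = 2.18e-05), and its groups were also apart. Acad11 fell by 0.50 ± 0.11. Tested apart, it was called lower in medulla and was not called in cortex, and the difference between the regions was itself not called (adjusted p = 0.579 by limma over all probe sets). Acadl has a second probe set whose difference was 1.22 ± 0.34 (adjusted p = 0.00616), opposite to the representing one. That probe set was dim, with means of 6.12 in organoids and 4.30 in progenitors. The array medians were 6.21 to 6.53 and 5.85 to 6.05, and it passed the filter through 1 group only.

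Of the genes of later steps, Hadh rose by 0.77 ± 0.13, while Hadha (0.34 ± 0.16), Hadhb (0.14 ± 0.16) and Acaa2 (0.10 ± 0.12) were not called. The other tested Hadhb probe set was called higher, by 0.32. The 2 other Acaa2 probe sets fell by 1.66 and 1.47, so the lack of a call for Acaa2 rests on the probe set. The 3 Hadh probe sets gave 0.22, 0.77 and 5.01. The one with 0.22 was not called, and it alone lacks the cross-hybridisation mark. Both the call and the size for Hadh therefore rest on the probe set. Eci1 rose by 0.36 ± 0.13 and Eci2 fell by 0.77 ± 0.13. Decr1 had 10.20 and 9.75 in medulla organoids and 9.18 and 9.60 in cortex organoids, against 10.59, 10.64, 10.60 and 10.61 in progenitors. All 4 organoid arrays were below and more spread, with a fall of 0.91 ± 0.13 (adjusted p = 4.45e-05), while its second probe set (0.22 ± 0.14) was not called. Decr2 had -0.63 ± 0.27 and was not called (adjusted p = 0.0527). Etfa rose by 0.61 ± 0.07 and Etfdh by 0.32 ± 0.09, and Etfb (0.11 ± 0.12) was not called.

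Of the 11 peroxisome genes 5 rose by their representing probe sets, Acaa1a with discordant probe sets among them, and 1 fell, against 28.1% and 44.3% of all genes. Acaa1b had 8.65 and 8.56 in medulla organoids and 8.79 and 8.54 in cortex organoids, against 3.41, 5.65, 5.52 and 4.50 in progenitors. The organoid arrays were close together and all above the progenitor arrays (3.22 ± 0.26, adjusted p = 3.7e-07). Acaa1a had 10.76 and 11.52 in medulla organoids and 11.56 and 11.63 in cortex organoids, against 8.41, 7.33, 8.29 and 8.51 in progenitors, a rise of 3.16 ± 0.21 (adjusted p = 8.52e-08). Its second probe set had 7.18 to 8.21 in organoids and 8.43 to 8.81 in progenitors and was called in the opposite direction, -0.80 ± 0.22 (adjusted p = 0.0052). Both Acaa1a probe sets carry the cross-hybridisation mark, so no direction can be given for this copy. The 2 probe sets that name both copies did not follow the rise: 1 had 7.66 to 8.82 in organoids and 10.07 to 10.20 in progenitors, lower on every organoid array, and the other 11.19 to 11.55 in organoids and 11.14 to 11.35 in progenitors, which overlap. The rise of Acaa1b therefore rests on its 1 probe set. Acox3 rose by 1.57 ± 0.19, Phyh by 1.59 ± 0.10 and Pex11a by 1.47 ± 0.14, whose second probe set (0.20 ± 0.18) was not called. Ehhadh fell by 0.70 ± 0.14, with organoid signals of 5.95, 5.66, 5.73 and 5.29, all below the organoid array medians of 6.21 to 6.53. Hsd17b4, Amacr, Acox2, Scp2 and Cat were not called, with differences from -0.39 to -0.02. However, 1 of the 3 other Scp2 probe sets rose by 3.58 and the second Hsd17b4 probe set by 0.36, both called higher.

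Across the list, 30 further probe sets of 19 genes bear on these signs. In this comparison 17 of the 30 had the sign of the representing probe set and 2, the dim one of Acadl and that of Acaa1a, were called in the opposite direction. In progenitors against tissue all 30 agreed in sign and were called. For organoids against tissue 26 of 30 had the same sign and 3 were called in the opposite direction. Tested on their own, 29 of the 66 member probe sets were higher and 12 lower in organoids than in progenitors, against 34.1% and 37.6% of all 24203. Against tissue 3 were higher and 59 lower, with 41.1% and 38.3% of all.

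**Figure D3:**
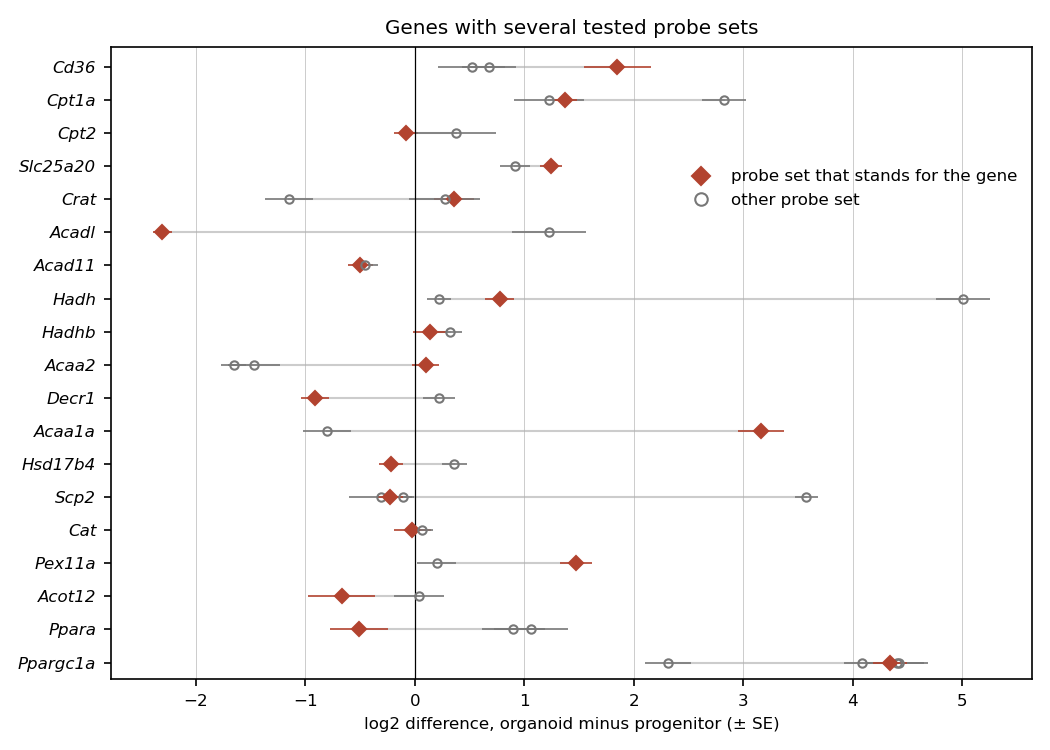
Log2 difference with its SE, organoid minus progenitor (horizontal axis), for the 19 genes with more than 1 tested probe set; red diamonds are the probe sets that stand for a gene and open circles its other probe sets. The Ppargc1a probe sets all lie between 2.31 and 4.42, while those of Hadh run from 0.22 to 5.01, those of Acaa1a from -0.80 to 3.16 and those of Acadl from -2.31 to 1.22, the latter a dim probe set.

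Organoids remained far from tissue. By limma 34 of 36 genes were lower, against 46.6% of all genes, 1 was higher, against 33%, and 1 was not called, with a median of -2.54 against -0.29 over all genes. Without the 3 genes that passed the filter only through tissue, 31 of 33 were lower, against 41.6% of the 11815 genes that passed in the same way. The 2 culture comparisons share the organoid arrays. Of the 14 genes that were higher in organoids than in progenitors, 12 were still below tissue and Acox3 (0.26 ± 0.19, adjusted p = 0.218) was not called. Acaa1a was above by its representing probe set only. All 7 that fell and all 15 that were not called against progenitors were below tissue.

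Ehhadh was furthest below tissue, with 5.95, 5.66, 5.73 and 5.29 in organoids, against 13.85, 13.98, 13.85 and 13.99 in tissue (-7.88 ± 0.14, adjusted p = 2.28e-12). Ppara had 3.13, 4.56, 4.47 and 3.40 in organoids, against 10.16, 10.89, 11.06 and 10.96 in tissue (-5.84 ± 0.26), and its other 2 probe sets gave -5.18 and -4.55. For both genes the organoid and tissue arrays lay far apart. Acaa1b, with 8.65, 8.56, 8.79 and 8.54 in organoids against 14.07, 14.62, 14.56 and 14.75 in tissue, fell by 5.81 ± 0.26 (adjusted p = 1.15e-09). Cd36, with 5.90, 6.41, 3.29 and 5.68 in organoids against 11.83, 11.27, 10.98 and 11.56 in tissue, differed by -5.53 ± 0.30. Neither gene's groups overlapped. Ppara and Cd36 passed the filter only through tissue, so their position below tissue follows from the filter in part.

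Ppargc1a was nearer to tissue, by -1.49 ± 0.16 (adjusted p = 2.51e-06), and its 5 probe sets gave -3.38 to -0.45, all called lower. The genes called lower by the smallest differences were Slc25a20 (-0.93 ± 0.10), Etfa (-0.95 ± 0.07) and Acadvl (-1.02 ± 0.13). Acaa1a, with 10.76, 11.52, 11.56 and 11.63 in organoids against 9.45, 9.74, 9.99 and 9.89 in tissue, was higher by 1.58 ± 0.21 (adjusted p = 2.41e-05) and its arrays did not overlap. Its second probe set had -1.62 ± 0.22 and was called lower, and the mean of both gave -0.02, not called. Single probe sets of Hadh (2.34 ± 0.25) and Scp2 (1.73 ± 0.10) were also called higher in organoids, against the other probe sets of those genes. Within medulla alone Acox3 was called higher as well, with 0.74 ± 0.27 (adjusted p = 0.0271 by limma), which made 2 genes, against 28.1% of all, and in cortex alone it had -0.21 ± 0.27.

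Medulla and cortex did not differ detectably for these genes in tissue or in progenitor cells. In tissue limma called 0 of 36, against 0.33% of all genes higher and 0.00767% lower, and 2 had an unadjusted p under 0.05, against 9.07% of all genes. These were Ppargc1a, with 12.21 and 11.80 in medulla against 11.16 and 11.33 in cortex (0.76 ± 0.22, adjusted p = 0.254), and Acox3, with 7.52 and 7.76 in medulla against 8.57 and 8.41 in cortex (-0.80 ± 0.27, adjusted p = 0.339). Both pairs of arrays lay apart. In 30 of 36 genes the difference was negative, with a median of -0.17 against 0.01 over all genes. In tissue limma also called 0 of 19 proximal tubule, 0 of 9 thick ascending limb and distal tubule and 0 of 11 collecting duct markers. Of 7 simple epithelium markers 2 were higher in medulla tissue. Mean log2 signals of the proximal tubule markers were 12.60 to 13.16 on medulla and 13.27 to 13.36 on cortex tissue arrays. How far the tissue samples differed in tubule content was not tested. In progenitors limma called 0 of 36, against 0.276% of all genes higher and 0.0384% lower, and only Ppargc1a had an unadjusted p under 0.05 (0.61 ± 0.22, adjusted p = 0.661), against 4.92% of all genes. The difference between the regions in the change from tissue to progenitor was called for 0 of 36, with 0.161% of all genes higher and 0.123% lower, and 2 had an unadjusted p under 0.05, Acad11 and Crot.

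A few members were called between organoids of the 2 regions, and over both directions together their share was near that of all genes. In medulla organoids 5 of 36 were higher than in cortex organoids, against 7.94% of all genes, and 1 was lower, against 10%. Crat had 9.25 and 8.35 in medulla organoids, against 7.38 and 7.33 in cortex organoids (1.37 ± 0.26, adjusted p = 0.0049). Crot had 11.44 and 11.44 in medulla organoids, against 10.72 and 10.99 in cortex organoids (0.58 ± 0.12, adjusted p = 0.0065). Both transferases help acyl groups leave peroxisomes, and the arrays of the regions were apart. Ppargc1a had 10.19 and 10.79 in medulla organoids, against 9.82 and 9.69 in cortex organoids (0.73 ± 0.22, adjusted p = 0.042). Phyh was higher by 0.51 ± 0.14 (adjusted p = 0.0289) and Decr1 by 0.58 ± 0.18 (adjusted p = 0.0484). Etfa, with 12.13 and 12.09 in medulla organoids against 12.71 and 12.69 in cortex organoids, was lower by 0.59 ± 0.10 (adjusted p = 0.00309).

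Over 24 alternatives the calls of Crat and Etfa were each kept in 22 and that of Crot in 20, while that of Ppargc1a was kept in 9 and lost in 15. The 2 medulla organoid arrays differed more from each other than those of any other group, with a median absolute difference over the members of 0.31, against 0.088 to 0.23 elsewhere. When limma was fitted to the organoid arrays alone no member was called, with adjusted p of 0.0988 for Etfa, 0.151 for Crot, 0.16 for Crat and 0.2 for Ppargc1a. The count higher was 2 without either cortex tissue array, the first cortex progenitor array or the first cortex organoid array, and 3 without the second cortex progenitor array or either medulla progenitor array. The count lower was 2 without the second cortex organoid array and 3 without the second medulla organoid array. Fibroblast markers moved with region, 8 of 9 higher in medulla organoids with a median of 2.14, and their summed log2 signal ranged from 11.02 to 13.02 over the organoid arrays. The Gapdh 3' minus 5' difference was 1.15 and 0.867 on the medulla and 1.53 and 1.67 on the cortex organoid arrays. The part of either in the members' differences was not tested.

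**Figure D4:**
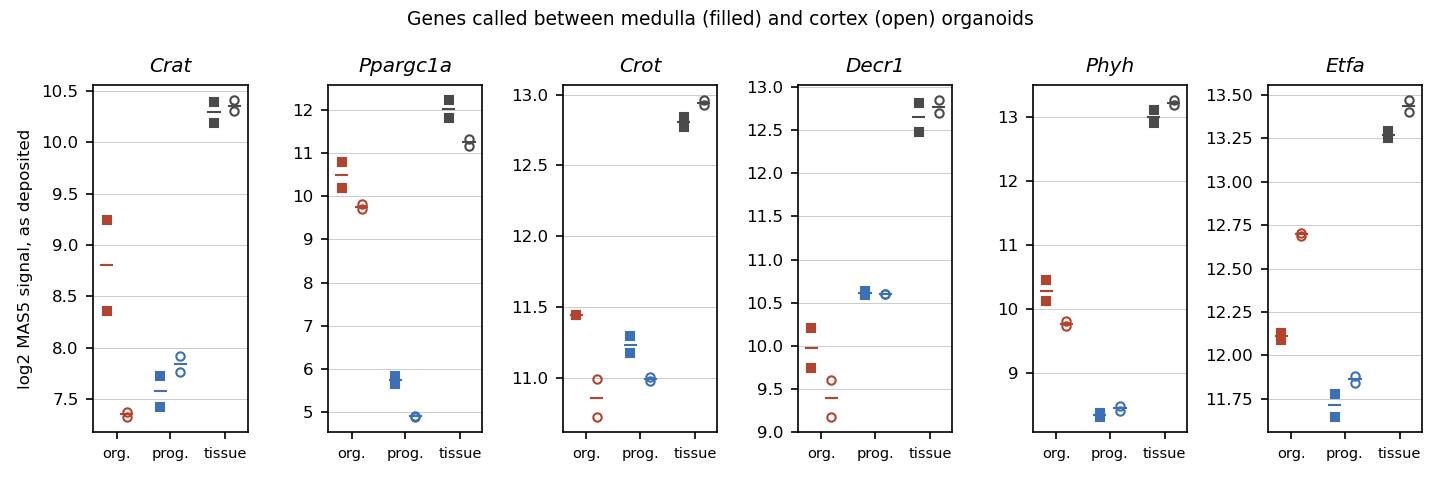
Log2 MAS5 signal as deposited (vertical axes, each with its own range, not from 0) of the 6 genes called between medulla and cortex organoids, by stage, with filled squares for medulla, open circles for cortex and short lines for the mean of 2 arrays. Crat has 9.25 and 8.35 in medulla organoids and 7.38 and 7.33 in cortex organoids, and its medulla and cortex points of progenitors and of tissue lie closer together.

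The change from progenitor to organoid differed between regions for 1 gene, Crat, by 1.62 ± 0.37 (adjusted p = 0.035), against 1.63% of all genes higher and 2.48% lower by limma, and 5 of 36 had an unadjusted p under 0.05, against 19.7% of all genes. Its other 2 probe sets gave 0.76 ± 0.43 and -0.78 ± 0.65 and were not called (adjusted p = 0.4 and 0.593). The Crat call was lost in each of the 10 fits that left out an array other than a medulla organoid array, with adjusted p from 0.0503 to 0.143, and the count higher was 2 without either medulla organoid array. Without the second of these, 2 members were called in the opposite direction. When each region was tested alone, 14 genes rose and 7 fell in medulla organoids against medulla progenitors, with 23.7% and 38.6% of all genes, and 14 rose and 6 fell in cortex organoids against cortex progenitors, with 24.3% and 37.5%.

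Other genes of these pathways were followed on lists of pathway genes. Of 37 other fatty acid oxidation enzymes tested, 32 fell in progenitors against tissue and 4 rose, with a median of -2.21, against 35.9% lower and 36.8% higher over all genes. The largest falls were Acsm2 (-10.22) and Acsm1 (-7.58), which activate medium chains, Slc27a2 (-9.03), which activates very long chains, and Acot3 (-7.14), a peroxisomal thioesterase. The 4 that rose were Cpt1c (2.78), a brain form of the carnitine transferase, and the acyl-CoA synthetases Acsl4 (1.63), Acsl5 (0.85) and Acsl3 (0.82). Against progenitors 15 of the 37 rose in organoids and 9 fell, with Acss1 (3.88), Acot2 (3.44) and Acsm3 (3.28) rising most and Echs1 (-2.10), the mitochondrial enoyl-CoA hydratase, falling most. Over all genes 28.1% rose and 44.3% fell in that comparison. Against tissue 29 were lower in organoids and 6 higher, against 46.6% and 33% of all genes. The same shares of all genes apply to the lists that follow. In all these lists, genes that passed the filter only through tissue were not counted apart. Some of their falls below tissue can therefore follow from the filter. Of the 39 other oxidation enzymes with a probe set, 8 did not exceed the array median on any progenitor array.

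Of 19 tested partners and regulators, 15 fell in progenitors and 3 rose, with a median of -1.16. Hnf4a (-8.16), a hepatocyte and proximal tubule transcription factor, the orphan receptor Esrrg (-6.48), the mitochondrial deacetylase Sirt3 (-3.25) and the lipid sensor Nr1h3 (-3.13) fell most, and Prkaa1 (1.34), Nrf1 (0.94) and Med1 (0.65) rose. Against progenitors 6 of the 19 rose in organoids and 9 fell. Esrrg, a partner of PGC-1 alpha, rose by 2.59 and Esrrb by 1.14, while Ppargc1b fell by 0.42 and Esrra by 1.21. Hnf4a (-0.18) was not called. Against tissue 15 were lower in organoids and 2 higher.

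Of 20 tested PPAR alpha target genes outside oxidation, 18 fell in progenitors, led by Cyp4a14 (-8.85), a fatty acid omega-hydroxylase, Fabp3 (-6.51), Vnn1 (-6.15) and Cyp4b1 (-5.88), and the lipid droplet coat gene Plin2 rose by 2.76. In organoids 9 rose against progenitors, among them Vnn1 (5.10), Fabp4 (5.06), Pdk4 (3.44), which restrains glucose oxidation, and Cyp4a12a (2.80), and 5 fell, with Bdh1 (-2.76), Angptl4 (-2.25) and Plin2 (-1.82) furthest. Cyp4a14 (0.26) was not called. Against tissue 17 were lower in organoids and 3 higher.

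Of 20 tested peroxins and membrane proteins 16 fell in progenitors and 1, Pex26 (0.58), rose, with a median of -1.01 and the largest falls in Mpv17l (-6.17), Pxmp4 (-3.87) and Pxmp2 (-3.38). Of 21 other peroxisome enzymes 16 fell and 3 rose, with a median of -2.39, and the oxidase Hao2 (-10.55) fell most. Slc27a2, already given with the other oxidation enzymes, fell by more than the oxidases Pipox (-6.93) and Dao (-6.70). Some genes count in more than 1 list, among them Slc27a2 and the membrane protein gene Abcd3. Between organoids and progenitors 7 peroxins and membrane proteins rose in organoids and 11 fell, with Pex14 (-2.38) furthest, and 7 other peroxisome enzymes rose and 5 fell. Against tissue 16 of each list were lower in organoids, and 2 and 3 were higher.

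**Figure D5:**
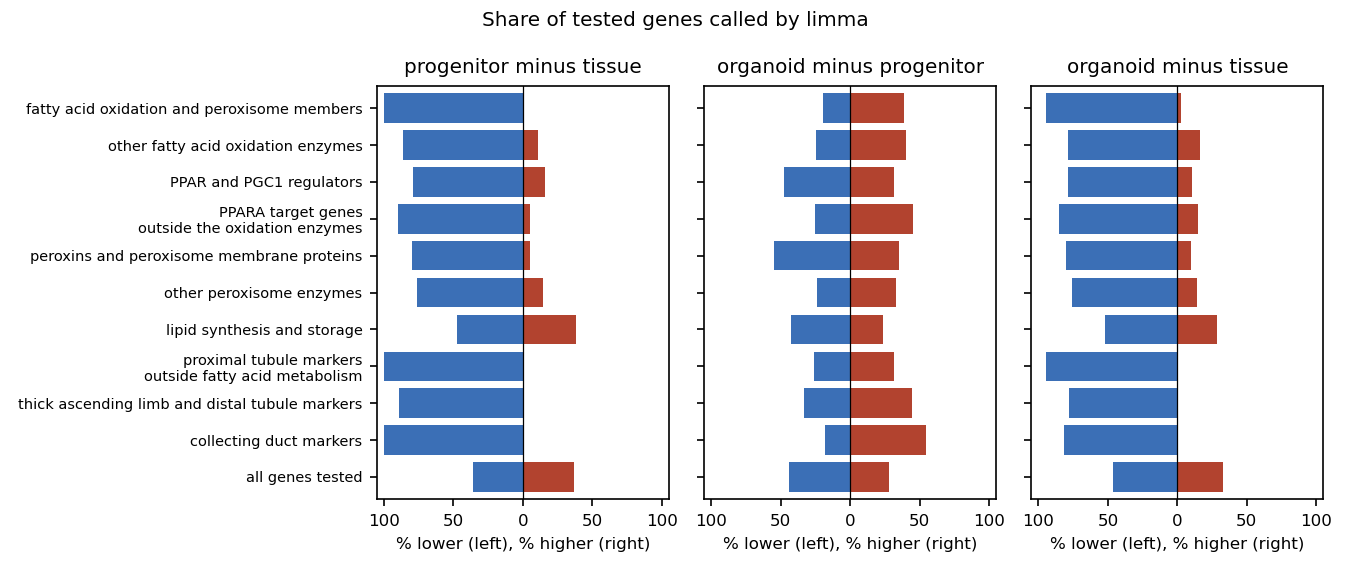
Percent of the tested genes of each list called lower (blue, to the left of 0) and higher (red, to the right) by limma in the 3 stage comparisons, with all 13037 genes in the lowest bar. For progenitor minus tissue the members' bar reaches 100% lower (36 of 36), while all genes stand at 35.9% lower and 36.8% higher.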

How the data were processed

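RNA of 12 samples was measured on Affymetrix 3' expression arrays for mouse, 2 for each of 6 groups taken from the sample titles. The authors deposited log2 signals per probe set, which MAS5 produced per the submitters' processing notes. The unlogged mean after trimming 2% at each end was 500 on every array, so the arrays had been scaled to a common target. MAS5 detection calls were not used here, and the number of arrays limits the precision.

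Probe sets with 1 gene symbol in the platform annotation (34958 of 45101) were used, and 64 control probe sets were left out. Values were unlogged, 15.1 (the 25th percentile of the signals) was added and log2 taken. A gene was tested where, in 1 group or more, its brightest probe set exceeded the median of each of the group's arrays. R 4.3.3 and limma 3.58.1 fitted 6 group means to all 12 arrays (6 residual degrees of freedom, empirical Bayes with trend, two-sided tests). The other probe sets were tested in a fit of all 24203 probe sets, and each region's own differences were contrasts of the 12-array fit. The model was tested on simulated data. Figures were drawn with matplotlib 3.10.9.

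The members, roles, gene lists and tests were chosen with earlier results of these data known. Shown array by array were the 4 largest called rises and falls among members in each stage comparison and the 3 largest each way in each region comparison, and of other lists up to 4 called genes each way. A test per probe set, the leaving out of probe sets marked x or s and counts without genes that passed the filter only through tissue were added after seeing the data. Alternatives changed the normalization, the offset, the filter, the probe set rule, the arrays fitted, the variance model, the replicate block and array weights, and left out each array in turn. Replicate numbers were checked for pairing: deviations from group means correlated between same-numbered arrays by -0.138 to 0.0569 over 15 pairs of groups, so the numbers were not taken to pair samples.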

Additional observations from a re-analysis of the deposited data

Results flagged for a closer look

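Crat, the carnitine acetyltransferase, was singled out because its change from progenitor to organoid differed between the regions by a test of the difference itself. The difference, medulla minus cortex, was 1.62 ± 0.37 on the log2 scale (adjusted p = 0.035 by limma). Medulla organoids had 9.25 and 8.35 and medulla progenitors 7.73 and 7.42, while cortex organoids had 7.38 and 7.33 and cortex progenitors 7.76 and 7.92. The 2 medulla organoid arrays were thus above the medulla progenitors and both cortex organoid arrays below the cortex progenitors. The other 2 Crat probe sets were not called (0.76 ± 0.43 and -0.78 ± 0.65). Leaving out single arrays gave 1.18 to 2.05, with a highest adjusted p of 0.143.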

How the results depend on the processing

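Of 22 named member values, 560 were recomputed over 26 alternatives, 12 of which left out 1 array. In 523 the direction and the call were kept, in 36 the call was lost and in 1 the direction turned: Acaa1a, organoid minus tissue, became -0.019 with the mean of all probe sets. Over the same 26, counts in progenitors against tissue stayed between 35 and 36 lower and at 0 higher. In organoids against progenitors 12 to 15 were higher. The count lower, 7, was 12 with 75th percentile scaling, which moved the median of all genes by -0.11 there and by -0.22 in organoids against tissue. It ranged from 7 to 11 when single arrays were left out, with 11 without the second medulla organoid array. In organoids against tissue the lower count stayed at 34, and the higher count was 0 with the mean of all probe sets or without probe sets marked x or s, and 2 within medulla alone. Between regions, the 0 higher in progenitors became 1 with array weights. The 5 higher in medulla organoids became 3 with no brightness filter, 2 with the mean of probe sets, 0 with the compared groups alone, 2 with no variance trend and 1 with array weights, and ranged from 2 to 6 when single arrays were left out. The 1 lower became 0 with the compared groups alone or array weights, and ranged from 1 to 3, with 3 without the second medulla organoid array. With the replicate block, which pairs equal replicate numbers although the labels do not say whether these share an origin, the 5 became 3. No other count of members moved by over 1.5 times with that block. For the difference between regions in the change from progenitor to organoid, the 1 higher became 0 with the mean of probe sets, the compared groups alone or no variance trend and ranged from 0 to 2 over left-out arrays, with 2 without either medulla organoid array. The 0 lower became 1 with quantile normalization and ranged from 0 to 2. The causes were not tested. Signal over background limits the dim probe sets of Cd36, Ppara and Acot12 in the cultures. It also limits those of Ehhadh in organoids and of Acaa1b and Ppargc1a in progenitors.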

Other observations

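A list of genes that make, store and break down lipid, lipases among them, did not show the one-sided fall of the oxidation genes. Of 21 tested, 10 were lower in progenitors than in tissue and 8 higher by limma, with a median log2 difference of -0.30 against 0.03 over all genes, of which 35.9% were lower and 36.8% higher. The lipases Lpl (-6.42) and Mgll (-5.75) and the acetyl-CoA carboxylase Acacb (-3.85) fell, while the desaturase Scd2 (2.74), the sterol regulator Srebf2 (2.07) and the fatty acid synthase Fasn (1.37) rose. In organoids against progenitors 5 rose and 9 fell, against 28.1% and 44.3% of all genes, with Mgll up by 5.29 and Lipe (-1.94), Elovl6 (-1.64) and Scd2 (-1.61) furthest down. Against tissue 11 were lower in organoids and 6 higher.

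Markers of other nephron segments gave a further view of the same arrays. In progenitors against tissue 8 of 9 thick ascending limb and distal tubule markers and 11 of 11 collecting duct markers fell. On no progenitor array did 7 of the 9 and 6 of the 11 exceed the array median, so their falls can follow from the filter in part. In organoids against progenitors 4 of the 9 and 6 of the 11 rose and 3 and 2 fell, with Umod (6.05), Slc26a4 (5.76) and Atp6v0d2 (5.48) rising most. Of 19 proximal tubule markers 6 rose, led by Kap (5.99) and Anpep (5.46), and 5 fell. The 4 tested proliferation markers were all higher in progenitors than in tissue (median 5.58) and all lower in organoids than in progenitors (median -3.30). All 7 simple epithelium markers were higher in progenitors than in tissue. In organoids against progenitors 7 of 9 fibroblast markers fell and 1 rose, and 2 of 7 leukocyte markers rose and 1 fell.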
